A study of Apis mellifera with 20 samples.

Results

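Gene expression in queen larvae of the honeybee (Apis mellifera) was compared between the fifth larval instar (L5) and the third (L3). The comparison used the 4 input libraries of queen larvae, 2 from L5 and 2 from L3, chosen by their sample titles from the 20 libraries of the series. Input libraries hold fragmented polyadenylated RNA of larvae that did not go through the pulldown with an antibody against m6A (N6-methyladenosine), a chemical mark on messenger RNA. The other libraries used here for reference were the inputs of L1 larvae, from which either caste can still arise, those of L3 and L5 worker larvae, and the pulldown (IP) libraries of L1, queen and worker larvae, each with 2 replicates. The labels name no treatment and give neither an age in hours nor the number of larvae or colonies behind a replicate. P-values therefore measure the spread between these libraries, which may be technical.

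Both female castes of the honeybee arise from fertilised eggs, and larvae fed royal jelly throughout become queens. The last larval instar is a time of rapid feeding and growth, in which insect larvae build up storage proteins in the fat body and the silk glands and epidermis prepare for cocoon spinning and the moult to the pupa, under the control of juvenile hormone and ecdysteroids. Because whole larvae were used, a change in the size or cell number of a tissue and a change in RNA per cell cannot be told apart. The deposited tables identify genes only by IDs that start with GB. A RefSeq gene table (assembly Amel_HAv3.1, 12398 genes) shared 0 of the 15314 IDs, so no gene name or role is given here. Genes are described by ID, by position on the scaffolds of the deposited tables (build not given in the sources used here) and by class.

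Levels are FPKM as deposited (fragments scaled for model length and for the size of the library). The 2 L3 queen libraries listed 3184 and 3296 models at 0 and the 2 L5 queen libraries 4292 and 5182. The median absolute difference between replicates was 0.20 log2 units at L3 and 0.45 at L5, over the 10025 genes tested. Read depth is unknown, so a value listed at 0 cannot be turned into a limit. With 2 libraries against 2, an exact two-sided permutation test of a single library measure cannot go below p = 0.333, the value found for the number of models at 0. Extraction or sequencing batches are not given in the labels, so instar and batch cannot be told apart.

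From L3 to L5, 1367 genes rose and 1728 fell in queens (limma, Benjamini-Hochberg adjusted p under 0.05). These were 13.6% and 17.2% of the 10025 genes tested, 30.9% together (3095 genes). The median log2 change was 1.59 among the genes that rose and -1.74 among those that fell, against -0.06 over all genes tested. At least a 2-fold change was seen for 1219 of the genes that rose and 1572 of those that fell, at least an 8-fold change for 178 and 229, and at least a 32-fold change for 49 and 34. Falls outnumbered rises down to the 8-fold limit, and rises outnumbered falls at the 32-fold limit. Both L5 libraries lay above both L3 libraries for 3377 genes (33.7%) and below them for 3856 (38.5%), and every called gene was among them.

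Direction was set relative to the typical gene. Without scaling, the median over all genes moved by -0.39 log2 units, and the calls became 878 higher and 2881 lower, and with libraries scaled to the same summed FPKM they became 979 and 2318. No called gene was called in the opposite direction under either scaling, but this was nearly fixed in advance. The smallest absolute change among called genes was 0.61 log2 units, and the median moved by only -0.39 and -0.25. What the scaling changed was whether a gene was called. The call count rests on the L3 libraries: without either of them limma called 0 genes, with 2153 and 2014 at an unadjusted p under 0.05 when L3 replicate 1 or 2 was left out, because the spread then came from the L5 libraries alone. When the spread was taken from all 10 input libraries, the same omissions left 2950 and 2702 genes. Without L5 replicate 1 the count was 5232.

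**Figure D1:**
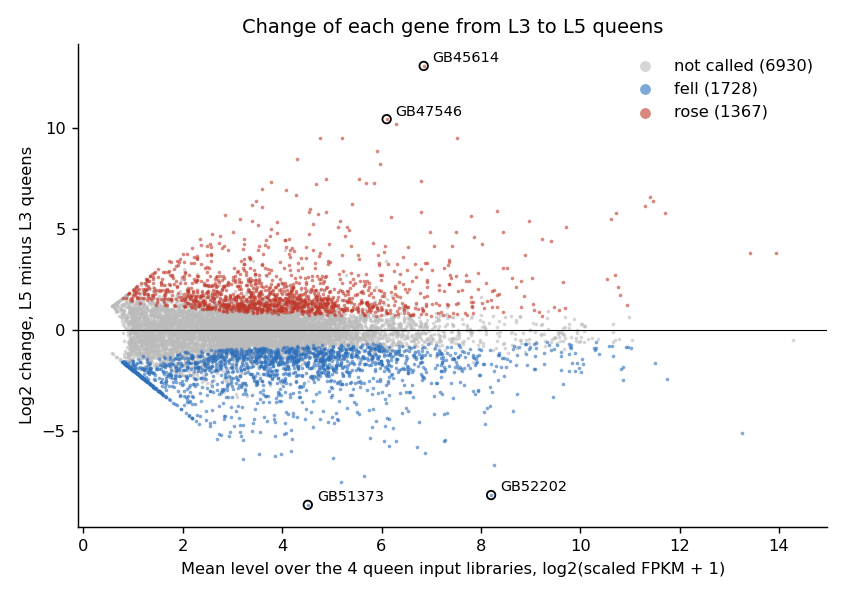
Log2 change from L3 to L5 queens (y axis) against the mean level over the 4 queen input libraries (x axis, log2(scaled FPKM + 1)), 1 point per gene tested, coloured by the limma call. The 1367 genes that rose reach 13.08 log2 units and the 1728 that fell reach -8.67, with 4 named genes circled.

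The 2 greatest rises were in genes almost absent at L3. GB45614 (plus strand of Group16.6, 3315 to 4251) was listed at 0 in 1 L3 queen library and had 0.594 FPKM in replicate 2, and reached 8026 and 10616 FPKM at L5. Its log2 change was 13.08 ± 0.30 (SE, n = 2 and 2, limma adjusted p = 5.88e-04). It was listed at 0 in both L1 and both L3 worker libraries, and had 3804 and 3117 FPKM in L5 workers, so the L5 libraries of both castes stood apart from every earlier one. GB47546 (minus strand of Group16.5, 802418 to 804626) had 0.946 and 1.01 FPKM at L3 and 2435 and 1998 at L5, a log2 change of 10.45 ± 0.19 (SE, n = 2 and 2, limma adjusted p = 5.38e-04). At L1 it had 0.403 and 0.917 FPKM, in the range of L3 queens, whereas L3 workers were already at 6.24 and 4.94. L5 workers had 3698 and 3539 FPKM, above both L5 queen libraries.

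The 2 greatest falls were in genes well expressed at both earlier instars. GB51373 (minus strand of Group10.22, 76940 to 78265) stood at 377 and 764 FPKM in L3 queens. In L5 queens, replicate 1 had 0.251 FPKM and replicate 2 was listed at 0. Its log2 change was -8.67 ± 0.43 (SE, n = 2 and 2, limma adjusted p = 1.63e-03). At L1 it had 262 and 357 FPKM. GB52202 (plus strand of Group6.14, 563887 to 564946) had 5912 and 5812 FPKM at L3 and 7.71 and 24.8 at L5, a log2 change of -8.19 ± 0.56 (SE, n = 2 and 2, limma adjusted p = 2.56e-03). The L5 replicates lay apart from each other, and both were far below the L1 libraries (4483 and 2857 FPKM). L5 workers, at 301 and 114 FPKM, lay above L5 queens and below all earlier libraries. Without L3 replicate 1 or 2 the limma adjusted p of these 4 genes rose to at most 0.174, 0.174, 0.181 and 0.187, in the order given, while their changes stayed at 12.71 or more, 10.12 or more, -8.03 or less and -7.33 or less under every alternative tried.

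**Figure D2:**
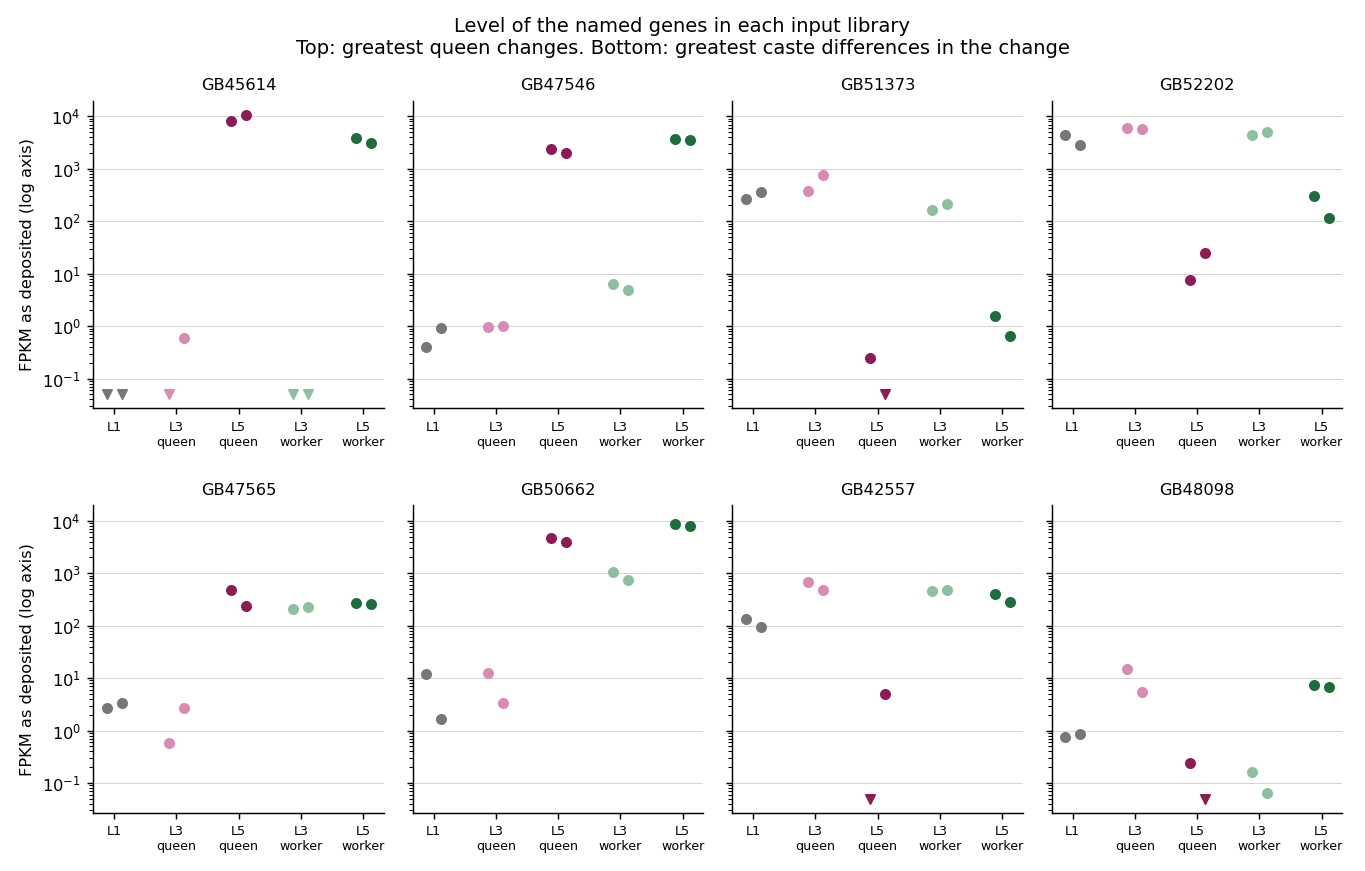
FPKM as deposited (log axis) of the 8 named genes in each of the 10 input libraries, 1 point per library; triangles at the bottom mark values under 0.05 FPKM, including those listed at 0. In the top row the L5 queen libraries lie apart from both L3 queen libraries in each gene, and in the bottom row L3 and L5 workers differ less than the queens do, or in the other direction.

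The most abundant RNAs of queen larvae came largely from different models at the 2 instars. The 10 models with the highest mean share of the summed FPKM at L5 held 36.6% and 38.9% of it in the L5 libraries and 6.07% and 5.97% in the L3 libraries, and 9 of the 10 rose. The 10 most abundant models of L3 held 20.5% and 22.6% at L3 and 13.4% and 11.7% at L5, and 8 of them fell and 1 rose. The lists had 2 models in common. Each list was chosen by level in libraries that the comparison uses, so its direction of change follows in part from the choice. Over all genes tested, 13.6% rose and 17.2% fell. Of the share held by the L3 list at L3, 9.71% and 11.2% of the summed FPKM came from 1 short model on GroupUn98. Because FPKM is relative to the whole library, a large gain by a few models lowers the share of all the others.

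The greatest gain in share was that of a model on Group11.18 (minus strand, 2869506 to 2873834), with 5335 and 4442 FPKM at L3 and 55527 and 46384 at L5. Its share of the summed FPKM went from 0.83% and 0.692% to 9.99% and 7.77%, and its log2 change was 3.82 ± 0.20 (SE, n = 2 and 2, limma adjusted p = 1.65e-03). A model on Group8.21 (minus strand, 111563 to 115804) rose from 4295 and 2683 FPKM to 41804 and 29430 (limma adjusted p = 3.13e-03). Its neighbour on the same strand (102689 to 106658) was the model with the second greatest loss in share and had 26239 and 29738 FPKM at L3 against 12974 and 15865 at L5. After scaling its log2 change was -0.52 ± 0.24 (SE, n = 2 and 2) and did not pass (limma adjusted p = 0.156). The shares of these neighbours crossed: the model that rose was the lower of the pair in both L3 libraries and the higher in both L5 libraries.

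The next greatest gain was in a model on Group12.10 (plus strand, 99585 to 100514), which belongs to a run described next. The greatest loss was in a short model on GroupUn98 (plus strand, 15844 to 16065), which went from 62441 and 72165 FPKM to 1044 and 1969, or from 9.71% and 11.2% of the summed FPKM to 0.188% and 0.330%. Its log2 change was -5.11 ± 0.38 (SE, n = 2 and 2, limma adjusted p = 3.03e-03), and L1 larvae had held 9.56% in each library. A model on Group5.11 (plus strand, 141445 to 142655) fell as well, its L3 levels being 8822 and 9932 FPKM and its L5 levels 813 and 1970 (limma adjusted p = 0.0224). Without L3 replicate 1 or 2 the calls of the Group11.18, Group8.21, Group12.10 and GroupUn98 models were lost, with limma adjusted p-values of 0.167 to 0.187, and that of the Group5.11 model with 0.236 and 0.266.

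Some neighbouring models shared a call. Runs of at least 2 consecutive models on a scaffold that all rose numbered 190 and took in 437 of the 1367 genes that rose, and runs that all fell numbered 251 and took in 588 of the 1728 that fell. Runs of at least 4 models numbered 10 and 19. With 13.6% of all genes tested rising and 17.2% falling, some neighbours share a call without any clustering. The number of runs to be had from these shares alone was not computed, so clustering is not shown. Adjacent models can share reads where they overlap, and no test was made of these counts. They moved with the calls, to 105 that rose and 513 that fell on FPKM as deposited and 118 and 389 at equal summed FPKM, and to 330 and 435 when the spread was taken from all 10 input libraries and 414 and 501 without L5 queen replicate 1.

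The longest run that rose held 6 models on Group12.10 (83985 to 105829), all on the plus strand and none overlapping another. Summed over the run, L3 queens had 2463 and 1063 FPKM and L5 queens 67749 and 111350, which was 12.2% and 18.7% of all FPKM of those libraries. The first model rose by 1.30 log2 units and the other 5 by 5.77 to 6.60. L1 larvae had 22.1 and 20.3 FPKM over the run, so L3 queens already stood above L1, whereas L3 workers, at 33.9 and 36.3, were near it. L5 workers had 29178 and 30506 FPKM, below both L5 queen libraries. The change was smaller in queens than in workers for 3 of the 6 models (differences of -3.61, -4.18 and -3.95 log2 units, limma adjusted p = 0.0239, 9.92e-03 and 0.0181). Of these 3 calls, 1 was kept without L3 queen replicate 1, 0 without L3 worker replicate 1, 1 without L3 worker replicate 2 and 2 without L5 worker replicate 2.

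The longest run that fell held 7 models on Group2.5 (75480 to 185626), 3 on the plus and 4 on the minus strand, with changes of -6.69 to -1.94. Its summed level went from 3722 and 4151 FPKM to 54.2 and 31.6. The sum was made up mainly by 1 model (plus strand, 129471 to 131268), which had 3421 and 3832 FPKM at L3 against 34.7 and 18.1 at L5 and fell in workers as well, from 2575 and 3080 to 71.8 and 39.8. A further model (153924 to 159012) also fell in both castes, and 4 of the 7 models had a change that differed between the castes. The model at position 2 (plus strand, 102582 to 107537) fell in queens, where L3 had 32.8 and 40.9 FPKM and L5 had 2.22 and 1.96, while workers went from 16.1 and 15.7 to 55.9 and 36.4, a difference between the castes of -4.46 log2 units (limma adjusted p = 2.06e-03). The model at position 7 (minus strand, 176494 to 185626) fell in queens too, with 28.0 and 53.3 FPKM at L3 and 2.32 and 3.00 at L5, while workers rose from 24.3 and 26.1 to 76.4 and 66.1, a difference of -4.30 (limma adjusted p = 5.43e-03). The models at positions 1 and 3 had differences of -2.12 and -3.38 (limma adjusted p = 0.0179 and 0.0108). These 4 calls of a difference were kept under 16 of 20 alternatives, and 2 of them were kept without either L3 queen or either L3 worker library.

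Further runs that rose were shorter or shallower. A run of 5 models on Group11.20 (419954 to 440062) had 68.1 and 58.7 FPKM at L3 and 188 and 190 at L5, with a median change of 1.13, and only 2 of its 5 calls were kept on FPKM as deposited. A run of 4 models on Group9.3 (minus strand, 62311 to 82253) had 77.4 and 72.6 FPKM at L3 and 360 and 304 at L5. Its model from 65233 passed narrowly (limma adjusted p = 0.0499) and was lost on FPKM as deposited (0.303), at equal summed FPKM (0.153), with library weights (0.0720), with the replicate block (0.0709) and with no minimum level (0.0509), which leaves 3 calls in this run. A model within it (71138 to 74764) rose from 1.94 and 2.12 to 58.4 and 44.4 FPKM, while L5 workers had 8.84 and 8.48, and the rise was greater in queens by 2.20 log2 units (limma adjusted p = 0.0140). A further model of the run (75434 to 82253) had a difference of 1.27 (limma adjusted p = 0.0270). Both calls were lost without either L3 queen or either L3 worker library, where no model of the run had a limma adjusted p below 0.0634. A run of 4 models on Group16.4 (1340292 to 1348625) had 217 and 180.0 FPKM at L3 and 2869 and 2525 at L5, but all 4 overlap another model, so reads cannot be assigned to 1 of them with certainty.

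On Group11.20, which also held a run that rose, 2 runs fell. The 6 models between 757716 and 788965 had 308 and 396 FPKM at L3 and 56.6 and 55.1 at L5, and the 5 models between 581354 and 625480 had 217 and 221 at L3 and 32.9 and 31.4 at L5. A run of 5 models on Group16.2 (108139 to 150442) fell from 970.2 and 1162 FPKM to 300.2 and 225. Of its models 2 overlap another, and 1 of these (from 124231) held 669 and 845 FPKM of the L3 sums. With overlapping models left out, 3 of the 5 calls remained in this run and in the Group11.20 run from 581354. A model within the Group16.2 run (plus strand, 142704 to 145667) fell most, with a log2 change of -4.18. In FPKM summed over the run, both L1 libraries lay above both L5 queen libraries in all 4 runs that fell. This did not hold for every model. The Group2.5 model from 176494 had 1.25 and 0.672 FPKM at L1 and 2.32 and 3.00 in L5 queens. The Group11.20 model from 589104 had 4.93 and 6.30 FPKM at L1 and 5.39 and 1.56 in L5 queens. Its neighbour from 595333 had 4.76 and 12.98 FPKM at L1 and 4.23 and 5.29 in L5 queens.

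**Figure D3:**
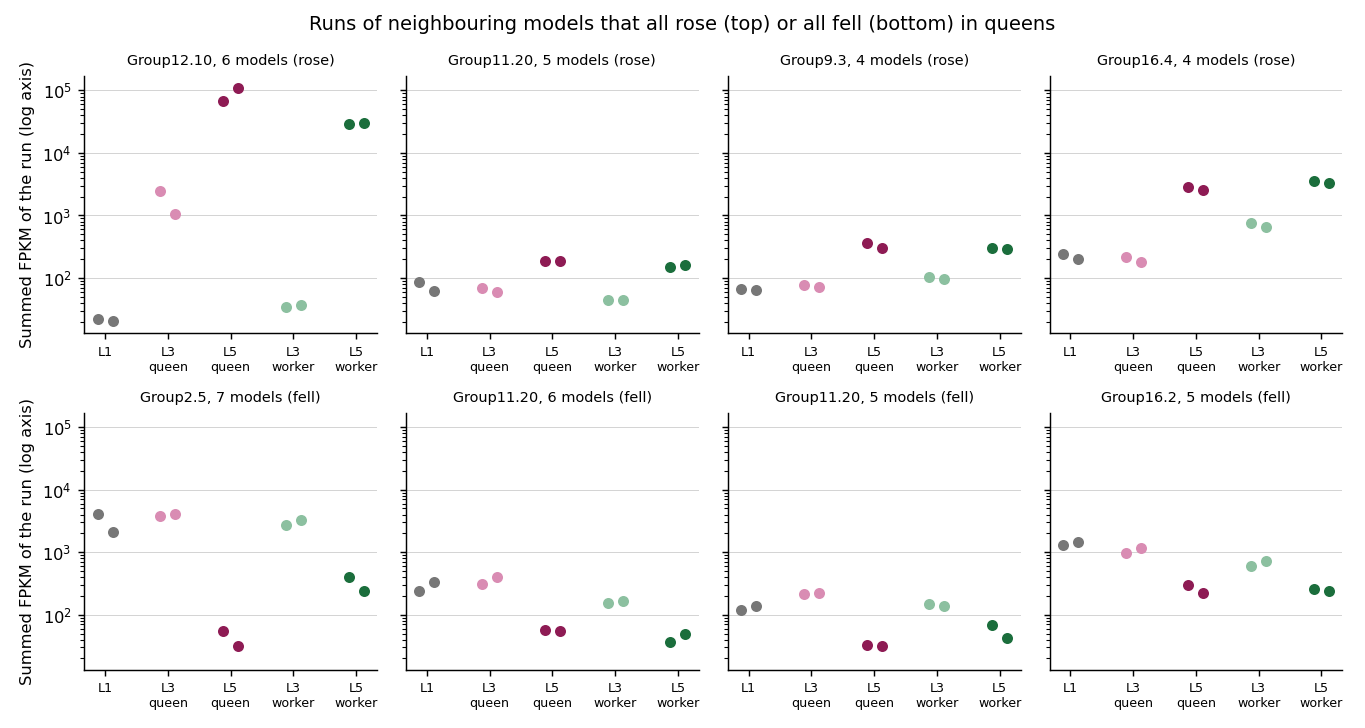
Summed FPKM (log axis) of the 8 runs described in the text in each of the 10 input libraries, 1 point per library; the top row rose and the bottom row fell in queens. The Group12.10 run reaches 67749 and 111350 FPKM in L5 queens and stays at 29178 and 30506 in L5 workers, and the Group2.5 run ends at 54.2 and 31.6 in L5 queens against 406 and 237 in L5 workers.

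Some falls ended at a listed value of 0. Of the 1728 genes that fell, 170 (9.84%) were listed at 0 in both L5 queen libraries, and 19 of the 1367 that rose (1.39%) were listed at 0 in both L3 libraries. Over all genes tested, 185 were listed at 0 in both L5 queen libraries and 54 in both L3 queen libraries. Such genes reached the minimum level only through the other instar, so their direction was fixed by the filter. The 2 shares are therefore a description and not a result about falls. The 170 genes had a median level of 4.75 FPKM at L3, and 20 of them had at least 10 FPKM. A listed 0 does not show that the RNA was absent: 149 of the 170 were above 0 in both L5 queen IP libraries, and 54 had at least 1 FPKM in both. In L5 workers 82 of the 170 were also listed at 0 in both input libraries and 18 had at least 1 FPKM in both. Without the 170 genes, 1558 falls remained with a median change of -1.67.

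Under a strict rule, at most 0.1 FPKM in both libraries of an instar and at least 10 in both of the other, 2 models met it with L5 as the high instar and 16 with L3, all in input libraries. These are descriptions, since the rule uses the compared values. Both models that were high at L5 lie on unplaced scaffolds. The first (GroupUn3525, 14432 to 15210) was listed at 0 in all 6 input libraries of L1, L3 queens and L3 workers, whereas L5 queens reached 294 and 1358 FPKM and L5 workers 426 and 429. Of the 16 that were high at L3, 14 had at least 10 FPKM in both L1 libraries and 8 in both L3 worker libraries, and 6 were at most 0.1 FPKM in both L5 worker libraries. In the L5 queen IP libraries, however, only 1 of the 16 was at most 0.1 FPKM in both and 5 had at least 1 FPKM in both. A short model on Group11.12 (142603 to 142857), listed at 0 in both L5 queen input libraries, had 29.9 and 23.9 FPKM in L5 queen IP against 14.6 and 13.5 in L3 queen IP. The highest at L3, on Group1.4 (243718 to 249100), had 79.7 and 122 FPKM in L3 queens and was listed at 0 in both L5 queen libraries and in 1 L5 worker library, with 0.358 FPKM in L5 worker replicate 1.

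Classes taken from measures that the queen comparison did not use were described next. Genes that were abundant in L1 larvae fell most often. Over all genes tested 17.2% fell and 13.6% rose. Of the 249 genes in the top level class at L1, 138 fell (55.4%) and 11 rose (4.42%), with a median change of -0.91. Level classes are 4-fold wide in scaled FPKM. Of the 630 genes in the class just below, which starts at 64, 46.8% fell and 8.73% rose, and of the 2555 at 16 to 64, 25% fell and 10.1% rose. In the 4226 genes at 4 to 16 the order turned, with 14.2% rising and 11.3% falling. On FPKM as deposited, however, 8.28% rose and 21.2% fell there, against 8.76% and 28.3% of all genes tested. Workers, in separate libraries, showed 79% of the top class falling and 2.42% rising, against 19.9% and 15.8% of all genes tested in both castes. How far these shares follow from choosing genes by level was not tested.

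Most models that were low at L1 did not enter the test. Of 2520 models listed at 0 in both L1 libraries, 78 reached the minimum level in queens, and of 2699 up to 1 scaled FPKM, 463 did. Of the 78, 28 rose (35.9%) and 3 fell, and of the 463, 137 rose (29.6%) and 25 fell. Models of these classes passed the minimum only where a queen library was high, so their share of rises is not set against the other classes.

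Gene models with a genomic span over 16 kb fell more often than shorter ones. Of 170 models over 64 kb, 48 fell (28.2%) and 7 rose (4.12%), with a median change of -0.62, and of 755 models of 16 to 64 kb, 25.6% fell and 9.01% rose. Of 4593 models of 1 to 4 kb, 13.8% fell and 16.2% rose, with a median change of 0.09, and on FPKM as deposited 24.1% fell and 10.3% rose. The 1292 models up to 1 kb fell more often than these (15.9%, with 14.9% rising), so falls did not climb steadily with span. Within 1 level class (16 to 64 scaled FPKM at L1), falls went from 17.5% of 1217 models of 1 to 4 kb to 40.4% of 208 of 16 to 64 kb and 15 of 30 over 64 kb. Of the 259 models up to 1 kb in that level class, 20.8% fell. In workers 32.9% of the models over 64 kb fell and 3.36% rose, while 22.8% of those up to 1 kb and 19.3% of those of 4 to 16 kb fell. The number of models listed at 0 was higher in the L5 libraries as well, and its part in this pattern was not tested.

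Genes enriched in the m6A pulldown of L1 larvae fell more often and rose less often than depleted ones. Over all genes tested 17.2% fell and 13.6% rose. Of the 1788 genes whose L1 IP level exceeded input by over 1 log2 unit, 433 fell (24.2%) and 126 rose (7.05%), with a median change of -0.44. Of the 1203 genes that were lower in IP by over 1 log2 unit, 195 fell (16.2%) and 237 rose (19.7%), with a median change of 0.07. Among genes at 4 to 16 scaled FPKM at L1 the same classes had 17.7% and 7.69% falling and 8.1% and 24.1% rising. Among models of 1 to 4 kb they had 21.1% and 14.3% falling and 8.87% and 21% rising, so the order held within 1 level class and within 1 span class. On FPKM as deposited 38% and 27.5% fell and 4.08% and 11.1% rose, against 28.3% and 8.76% of all genes tested. In the classes between, falls in the main test were 15.7% (IP lower by 0.5 to 1), 15.8% (within 0.5) and 19.9% (IP higher by 0.5 to 1). Only the enriched classes therefore fell more often than all genes tested. Rises in these middle classes were 14.8%, 12.7% and 10.7%. The ratio was not set against a control pulldown, so it is not a measured m6A level.

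**Figure D4:**
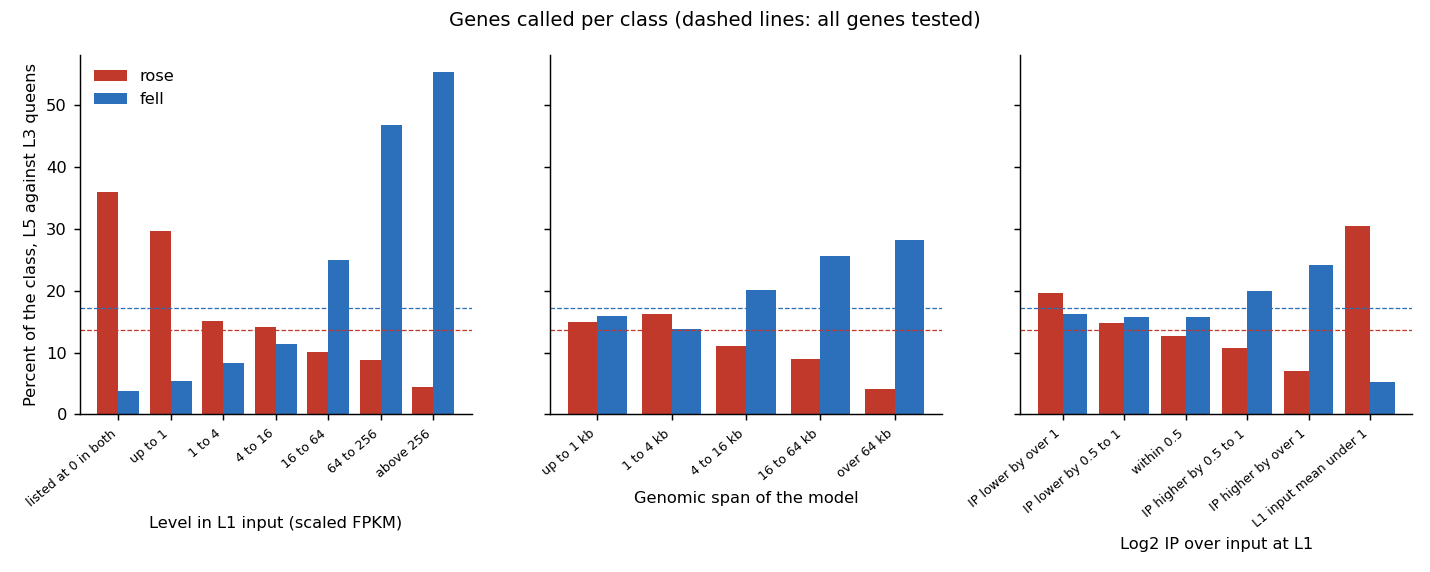
Percent of genes that rose (red) and fell (blue) from L3 to L5 queens, by level in the L1 input libraries, by genomic span and by the L1 ratio of IP to input; dashed lines give all genes tested (13.6% and 17.2%). Falls reach 55.4% in the class most abundant at L1 and 28.2% in models over 64 kb, and the classes that are low at L1 hold only models that passed the minimum level in queens.

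By the linkage group that names the scaffold, 11.4% (group 1, 1285 genes) to 17.6% (group 8, 722 genes) rose, against 13.6% of all genes tested. Falls ran from 13.7% (group 10, 599 genes) to 24.8% (group 13, 307 genes), against 17.2% of all genes tested. These are the lowest and highest shares among the groups, and differences between groups were not tested.

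Most of the changes in queens were met in the same direction in workers. Workers were compared in their own 4 input libraries, where 1494 genes rose (15.6%) and 1898 fell (19.8%), 35.4% of 9569 tested. Of the 1367 genes that rose in queens, 730 rose in workers (53.4% of the queen list and 48.9% of the worker list) and 25 fell. Of the 1728 that fell in queens, 997 fell in workers (57.7% and 52.5%) and 28 rose. A further 549 and 637 were not called in workers, with median worker changes of 0.47 and -0.44, which have the sign of the queen change. Over 9346 genes tested in both castes, the changes correlated at r = 0.74, a description across genes that are not independent.

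The difference between the castes was tested gene by gene in the 8 input libraries of L3 and L5. It passed for 491 of 9835 genes (4.99%), with a more positive change in queens for 280 (2.85%) and a more negative one for 211 (2.15%), by limma with the same threshold. This balance turned with the scaling, to 128 and 763 on FPKM as deposited and to 117 and 944 at equal summed FPKM. Of the 3095 genes called in queens, 341 (11%) were among them. The change was more positive in queens than in workers for 168 that rose in queens, of which 25 fell in workers. It was more negative for 153 that fell in queens, of which 28 rose in workers. The test includes the queen libraries that chose the 3095 genes, so this share and these directions follow in part from the choice. The count depends on single libraries: 83 and 87 genes passed when L3 queen replicate 1 or 2 was dropped, 57 and 68 when L3 worker replicate 1 or 2 was, and 1225 when L5 queen replicate 1 was.

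GB47565 (minus strand of Group16.5, 547499 to 548539) had the most positive difference. L3 queens had 0.576 and 2.67 FPKM and L5 queens 472 and 241, whereas L3 and L5 workers had 207 to 266 FPKM throughout, a difference of 7.30 ± 0.56 (SE, limma adjusted p = 2.75e-03). L1 larvae, at 2.74 and 3.38 FPKM, were near L3 queens. GB50662 (minus strand of Group13.5, 498272 to 504336) stood at 12.8 and 3.38 FPKM in L3 queens and 4602 and 3872 in L5 queens, and at 1042 and 736 in L3 workers and 8561 and 8063 in L5 workers, a difference of 6.41 ± 0.63 (SE, limma adjusted p = 4.84e-03). At L5 the queen libraries lay above and below the worker libraries for GB47565 and below it for GB50662.

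GB42557 (plus strand of Group7.9, 332532 to 334683) had the most negative difference. L3 queens had 690 and 487 FPKM, and the L5 queen libraries were listed at 0 and at 5.01, while L5 workers kept 399 and 284, a difference of -6.78 ± 1.03 (SE, limma adjusted p = 0.0181). The L5 queen IP libraries, at 12.98 and 12.2 FPKM, were also below those of L5 workers, at 650.01 and 296. The difference did not pass with 0.1 as the pseudocount (limma adjusted p = 0.0896), nor when L3 queen replicate 1 or 2 (0.0893 and 0.0809) or L3 worker replicate 1 or 2 (0.0983 and 0.0949) was dropped. GB48098 (minus strand of Group7.24, 858539 to 860387) stood at 15.0 and 5.41 FPKM in L3 queens and was at 0.239 or listed at 0 in L5 queens, and it rose in workers from 0.162 and 0.0658 to 7.33 and 6.63, a difference of -5.72 ± 0.59 (SE, limma adjusted p = 5.06e-03). The calls of GB47565, GB50662 and GB48098 were kept under all 20 alternatives tried.

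**Figure D5:**
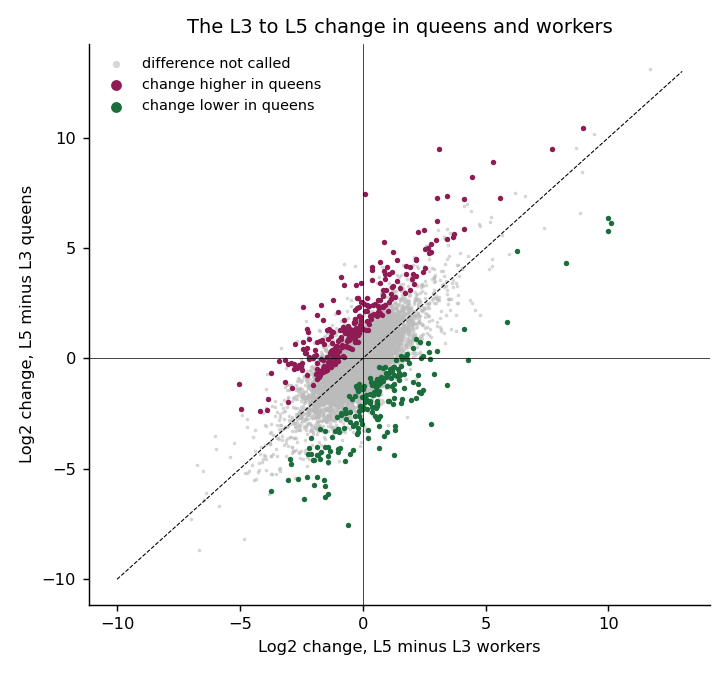
Log2 change from L3 to L5 in queens (y axis) against workers (x axis), 1 point per gene tested in both; coloured points passed the test of the difference and the dashed line marks equal change. Most genes follow the line (r = 0.74), and the coloured genes lie on both sides of it.

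The queen IP libraries, which did not enter the test, were set beside the inputs. Of the genes that rose in input, 1298 of 1367 (95%) were higher in L5 than in L3 IP after scaling, and of those that fell, 1600 of 1728 (92.6%) were lower, against 53% higher and 46.9% lower among all genes tested. Their median IP changes were 1.76 and -1.52 log2 units, against 0.10 over all. For GB45614 the IP libraries had at most 0.188 FPKM in L3 queens and 6010 and 10970 in L5 queens, and for GB51373 672 and 1230 against 0.282 and 0.563. IP and input libraries may come from the same RNA, so this is no independent set of larvae.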

How the data were processed

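The authors deposited 1 table per library with an FPKM value for each of 15314 gene models. HISAT2 2.1.0 is named in the submitters' processing notes. For the FPKM program, the build and the annotation, nothing is given in the sources used here. FPKM keeps no depth, and low values showed no common step from which reads could be recovered. The kit does not mark strand, so the 24.9% of tested genes that overlap another model are uncertain.

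FPKM was divided by median-of-ratios factors (8128 genes above 1 FPKM in the 4 queen libraries). Genes whose mean after scaling reached 1 FPKM entered the test. Values on the log2(FPKM + 1) scale, which understates low genes, were compared by limma 3.58.1 (R 4.3.3, eBayes with trend, two-sided, Benjamini-Hochberg, threshold 0.05). Only the compared groups entered a fit, since L5 libraries spread more than L3. The fits were tested on simulated data. Alternatives were another pseudocount, no minimum level, other scalings, all 10 inputs with and without library weights, overlapping models left out, a replicate block and each library left out. Figures used matplotlib 3.10.9.

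IDs were named by the 2 highest and 2 lowest changes of each test. Runs were named by length and then median change, 4 per direction, and abundant models by change in share, 3 per direction. Lists of named genes were not used, since no ID matched. Members, rules and classes were chosen with earlier results of these data known.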

Additional observations from a re-analysis of the deposited data

Results flagged for a closer look

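The change from L3 to L5 differed between queens and workers, by limma's test of the difference at an adjusted p under 0.05, for several of the genes and models described by name or position. Differences are the queen change minus the worker change in log2 units. Among the genes they were 1.38 for GB47546, 7.30 for GB47565, 6.41 for GB50662, -6.78 for GB42557 and -5.72 for GB48098. Among the abundant models they were 2.96 for the Group11.18 model from 2869506, and 2.80 and 1.99 for the Group8.21 models from 111563 and 102689. In each of these abundant models both L3 worker libraries lay above both L3 queen libraries. For the Group11.18 model L3 workers had 29532 and 26054 FPKM. L5 workers, at 57657 and 57548, lay above both L5 queen libraries there. In both Group8.21 models L5 queens lay above L5 workers. In the Group12.10 run the differences were -3.61, -4.18 and -3.95 for the models from 96926, 101999 and 104801. In the runs that rose on Group9.3 and Group16.4 they were 2.20 and 1.27 (from 71138 and, overlapping another model, 75434) and 2.42 (from 1341423, overlapping another model). In the Group2.5 run they were -2.12, -4.46, -3.38 and -4.30 for the models from 75480, 102582, 110364 and 176494. The remaining values were -3.02 on Group11.20 (from 777184) and -2.38 on Group16.2 (from 108139, overlapping another model). For this Group11.20 model the L3 worker inputs were listed at 0 and 0.950 FPKM, and both L5 worker inputs at 0. It therefore had almost no level from which to fall in workers. With no minimum level, the calls on Group11.18 and Group8.21 were lost (limma adjusted p = 0.0699, 0.0609 and 0.163 in the order above). The call of 2.80 was also lost with library weights (0.0624), and both Group8.21 calls without L3 queen replicate 2 or either L3 worker library. GB47546 passed under 10 of 20 alternatives, with limma adjusted p-values up to 0.144 (without L3 worker replicate 1). The values on Group11.20 and Group16.2 passed under 9 of 20 alternatives each, and both were lost without replicate 2 of L3 or of L5 queens and without either L3 or either L5 worker library.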

How the results depend on the processing

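The count of 3095 genes in queens stayed between 2449 and 4473 under the other settings. The 2449 were of only 7531 genes tested, with overlapping models left out, against 10025 in the main test. The count was 4473 when all 10 input libraries gave the spread (1978 higher, 2495 lower) and 3433 with a weight per library. Leaving out a library gave 0 to 5232, and 2702 to 4841 when 1 queen library was left out of the fit of all 10 inputs. The caste difference, 491 genes, became 891 on FPKM as deposited (128 higher, 763 lower), 1061 at equal summed FPKM (117 and 944) and 807 with all 10 input libraries, 57 to 1225 when a library was left out, and 262 to 1762 when 1 queen library was left out of the fit of all 10 (290 and 1014 without replicate 2 of L3 and L5 queens), a setting chosen after seeing the data. Where an arm was left with 1 library, that library was assumed to vary like the others. A block for the replicate number gave 2720 genes in queens and 456 for the caste difference. The labels do not say that the numbers pair samples, the replicate differences of L3 and L5 queens correlated at 0.0963 over the genes of the queen test, and those of the 6 pairs of L3 and L5 groups at 0.0312 to 0.160, from 2 replicates each. No called gene was called in the opposite direction under any setting. All settings use the same libraries, so a reversed call was unlikely from the start and this says little about direction. Depth is unknown, which limits what a listed 0 or a low level can show.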
